A study of Papio anubis with 60 samples.

Results

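The regions described here are H3K4me3 domains of the olive baboon genome that bore H3K27 acetylation in embryonic stem cells (ESC) but had no peak of it in induced pluripotent stem cells (iPSC), which are somatic cells reprogrammed to a similar state. They were chosen by their peaks: H3K4me3 peaks of both cell types on the 20 autosomes were joined where they lay within 1 kb, and joined domains of at least 2 kb were kept. A domain was selected on 4 conditions: an H3K4me3 peak in both lists, ESC H3K27ac peaks over at least 10% of its length, no overlapping iPSC H3K27ac peak, and H3K27me3 peaks over less than 25% of its length in both cell types. Of 30730 domains, 1706 met them all, and these are called ESC-only domains below. A missing iPSC peak means that the list holds none there, not that the mark was absent from the chromatin.

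The study mapped 4 histone marks by chromatin immunoprecipitation with sequencing (ChIP-seq) in ESC lines B4 and B15 and iPSC lines 160-2 and M14939#3, all grown on feeder cells. Each of its 60 libraries was made from 50000 cells after digestion of the chromatin with micrococcal nuclease, with 3 replicates of each line for every mark and for the input. Every cell type and mark had a single peak list, 8 in all, so a list has no replicate and cell type and cell line cannot be told apart. No read counts were used and the depth behind a list is unknown. How many reads of a list came from feeder cells was not measured.

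H3K4me3 is placed by SET1 and MLL methyltransferase complexes around active and poised promoters, and H3K27ac by the acetyltransferases p300 and CBP at active promoters and enhancers. A promoter can keep H3K4me3 while its acetylation is low, and Polycomb repressive complex 2, which writes H3K27me3, modifies the same lysine that H3K27ac occupies. H3K9me3 marks heterochromatin and silenced repeats, and its incomplete resetting is a much studied property of reprogrammed cells.

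An H3K4me3 peak was present in both lists at 30512 of the 30730 domains, and 22071 of these also stayed under the H3K27me3 limit. ESC H3K27ac covered at least 10% of the length of 17328 of the 22071. The 1706 ESC-only domains were 9.85% of these 17328 (95% Wilson interval 9.41% to 10.3%). Among the other ESC-acetylated domains, iPSC H3K27ac also covered at least 10% of the length at 12707, called domains acetylated in both, and a smaller part of it at 2915. The converse pattern, iPSC H3K27ac over at least 10% with no ESC peak, was found at 130 of 13272 iPSC-acetylated domains, or 0.98% (Wilson interval 0.826% to 1.16%). Over all 30730 domains, with no condition on the other marks, 7.25% had the ESC-sided pattern and 0.579% the iPSC-sided one. Because the rule used H3K27ac, these shares describe the choice and carry no test.

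The excess of ESC-sided over iPSC-sided domains moved with the length of the H3K27ac lists. On the autosomes the ESC list held 376101 H3K27ac peaks over 102 Mb, and the iPSC list 213657 peaks over 54.4 Mb. When the ESC list was shortened to its strongest peaks until both lists held the same number, 845 ESC-only domains were left, all of them among the 1706, and 652 domains were acetylated in iPSC only. The shares were then 5.88% of 14380 ESC-acetylated domains (Wilson interval 5.50% to 6.27%) and 4.91% of 13272 iPSC-acetylated domains (4.56% to 5.29%), beside 3.55% and 2.53% over all domains. Of the domains lost, 484 had no ESC peak left and 377 had peaks over less than 10% of the length. The shortened ESC list began at a −log10 q of 5.75 and the iPSC list at 1.30, so an equal number of peaks does not make the lists equally sensitive, and what part the libraries' depth has in the 1706 was not tested.

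ESC acetylation was weaker at the ESC-only domains than at those acetylated in both. ESC H3K27ac covered a median of 16.9% of their length (quartiles 12.9% and 23.5%), against 32.1% at domains acetylated in both. The highest fold enrichment of a peak in the domain, the authors' value, had a median of 3.20 against 4.65, and the highest −log10 q a median of 7.54 against 16.8. In number, 535 ESC-only domains held 1 ESC H3K27ac peak, 777 held 2 and 394 held 3 or more. A −log10 q of at least 5 was reached by 1363 of the 1706, of at least 10 by 469, and of at least 20 by 12, or 79.9%, 27.5% and 0.703%. Of domains acetylated in both, 98.2%, 81.5% and 38.1% reached these limits, and of all 22071 that met the H3K4me3 and H3K27me3 conditions 83.6%, 59.2% and 23.7%. In all, the ESC-only domains spanned 4820 kb, of which 926 kb lay under ESC H3K27ac peaks.

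The share of ESC-acetylated domains with no iPSC peak fell steeply as the ESC peak got stronger. It was 62.3% of 130 domains whose strongest ESC H3K27ac peak had a −log10 q under 3, 43.1% of 608 at 3 to 5 and 21.6% of 4142 at 5 to 10. Among stronger peaks it was 6.26% of 7299 at 10 to 20 and 0.233% of 5149 at 20 or more. The converse share for iPSC-acetylated domains was 4.82% under 3 and 0.192% at 10 to 20. The values of −log10 q belong to lists of different length, so bars of the same strength are not matched between the cell types. Within the ESC list, few of the ESC-only domains held one of the strongest peaks.

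**Figure D1:**
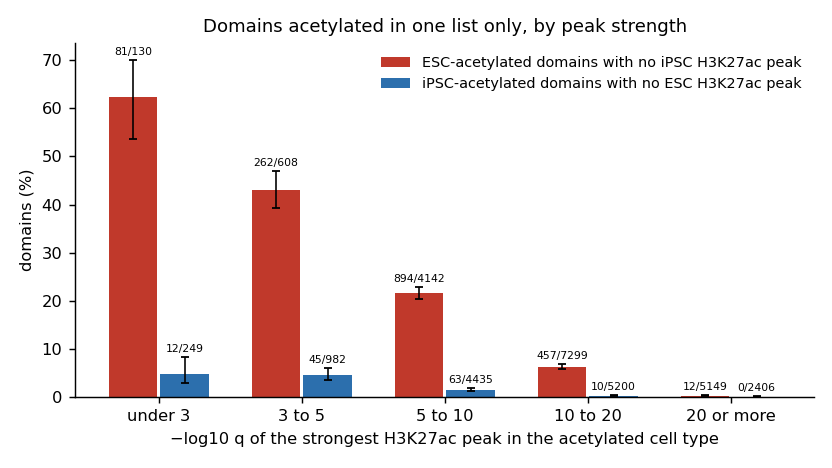
Percent of acetylated domains (vertical axis) that had no H3K27ac peak in the other cell type's list, by the −log10 q of the strongest H3K27ac peak in the domain (horizontal axis). Bars are ESC-acetylated domains (red) and iPSC-acetylated domains (blue), lines are 95% Wilson intervals, and the labels give domains over the total; the ESC bars fall from 62.3% to 0.233%.

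Narrow domains and those with weak H3K4me3 were the ones most often acetylated in ESC only. The share was 13.8% of ESC-acetylated domains 2 to 3 kb wide, 7.57% at 3 to 4 kb, 4.38% at 4 to 6 kb and 1.80% at 6 kb or more. The median width of ESC-only domains was 2535 bp (quartiles 2218 and 3074.5 bp), against 3000 bp for domains acetylated in both. With the domains divided into 5 equal groups by their highest ESC H3K4me3 fold enrichment, the share fell from 15.2% in the lowest group to 5.91% in the highest. The converse share for iPSC-acetylated domains was also highest in narrow domains, at 1.65%, 0.523%, 0% and 0.199% in the same order of width. Grouped by their highest iPSC H3K4me3 fold enrichment, it fell from 2.15% in the lowest group to 0.264% in the highest. A wider domain has more room for a peak of the other cell type, so width and the rule are not independent.

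The thresholds cut through a continuous range. Just inside the acetylation limit, 159 ESC-only domains had 10% to 11% of their length under ESC H3K27ac (median fold enrichment 2.88), and just outside it 160 domains had 9% to 10% (median 2.92). For width, 225 lay at 2.0 to 2.1 kb and 235 otherwise matching domains at 1.9 to 2.0 kb. For H3K27me3, 80 had 20% to 25% in the higher of the 2 cell types, and 62 were left out with 25% to 30%. The H3K27me3 limit alone kept out 483 domains.

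Within the domains, most base pairs under ESC H3K27ac peaks also lay under ESC H3K4me3 peaks. The domains were built from H3K4me3 peaks, which in ESC covered a median of 54.5% of the length of ESC-only domains. Part of the overlap is therefore set by the choice. The median share of their ESC H3K27ac base pairs that were also under ESC H3K4me3 was 100% (lower quartile 83.7%), against 96.6% (lower quartile 79.1%) at domains acetylated in both. The summit of the strongest ESC H3K27ac peak was within 200 bp of the strongest ESC H3K4me3 summit at 38.6% of ESC-only domains (Wilson interval 36.3% to 40.9%) and at 44.1% of those acetylated in both (43.3% to 45.0%). The median distance between these summits was 461 bp and 338 bp. Around the ESC H3K4me3 summit, ESC H3K27ac peaks covered 53.5% of the ESC-only domains and 80.0% of those acetylated in both.

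**Figure D2:**
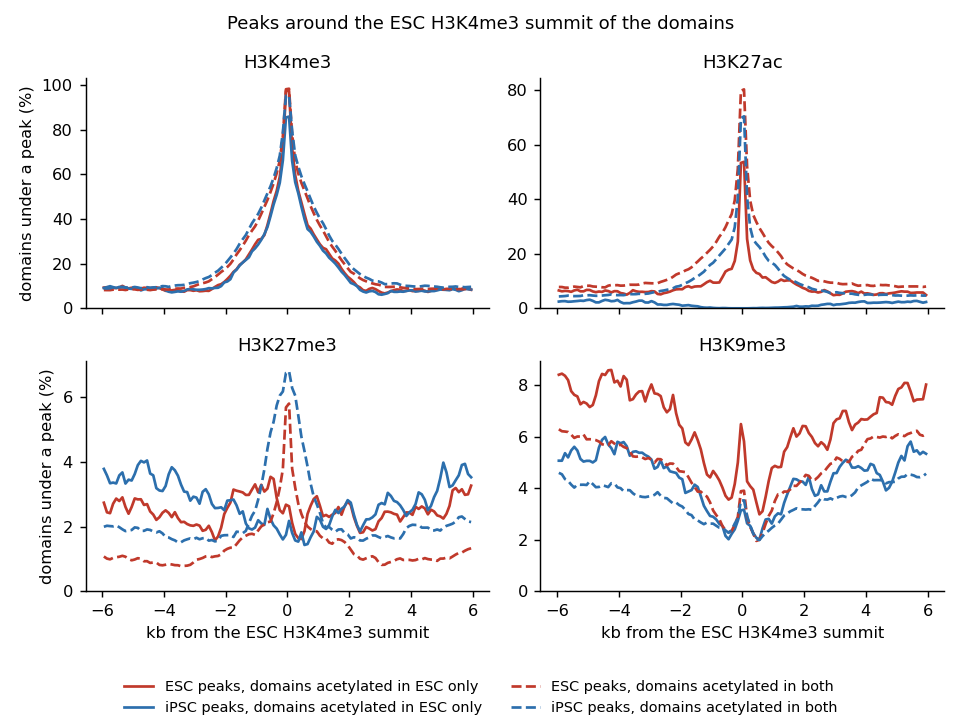
Percent of domains under a peak (vertical axis) by distance in kb from the strongest ESC H3K4me3 summit (horizontal axis), 1 panel per mark and each with its own scale. Red lines are ESC lists and blue lines iPSC lists, solid for the 1706 ESC-only domains and dashed for the 12707 acetylated in both; at the summit ESC H3K27ac covered 53.5% and 80.0% of them, and the near-zero iPSC H3K27ac of the ESC-only domains is set by their choice.

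H3K4me3 itself leaned toward ESC at the ESC-only domains, although the rule asked only that both lists have a peak. The median log2 ratio of base pairs under ESC to base pairs under iPSC H3K4me3 peaks was 0.07 (quartiles −0.21 and 0.41) at the 1706 ESC-only domains and −0.08 (quartiles −0.34 and 0.09) at the 12707 acetylated in both. It was −0.34 at the 130 acetylated in iPSC only. The difference between ESC-only domains and those acetylated in both was 0.16, had the same sign on 20 of 20 autosomes, and averaged 0.15 ± 0.04 over them (SD, n = 20 autosomes), from 0.06 to 0.24. The median base pairs under H3K4me3 were 1456 in ESC and 1368.5 in iPSC at ESC-only domains, and 1864 and 1984 at those acetylated in both. More base pairs lay under ESC than under iPSC H3K4me3 at 57.4% of ESC-only domains and at 37.3% of those acetylated in both.

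ESC H3K4me3 covered at least 1.5 times the base pairs of iPSC H3K4me3 at 297 ESC-only domains, 17.4% (Wilson interval 15.7% to 19.3%), against 4.01% of domains acetylated in both and a background of 6.98% of the 30512 domains with H3K4me3 in both lists. The opposite ratio was met by 187 ESC-only domains, 11% (9.57% to 12.5%), against 13.4% of domains acetylated in both and a background of 12.4%. At domains with no H3K27ac peak in either list the shares were 11.3% and 19.1%. Over the 22071 domains that met the H3K4me3 and H3K27me3 conditions they were 7.06% and 14.7%. ESC-only domains therefore had the larger share on the ESC side. Their share on the iPSC side was close to the background of all domains and below that of the 22071. An ESC coverage of at least 4 times that of iPSC was reached by 32 of them (1.88%), by 25 (0.197%) of those acetylated in both, by 0.864% of those with no H3K27ac peak, and by 0.498% of all 22071 domains that met the H3K4me3 and H3K27me3 conditions.

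**Figure D3:**
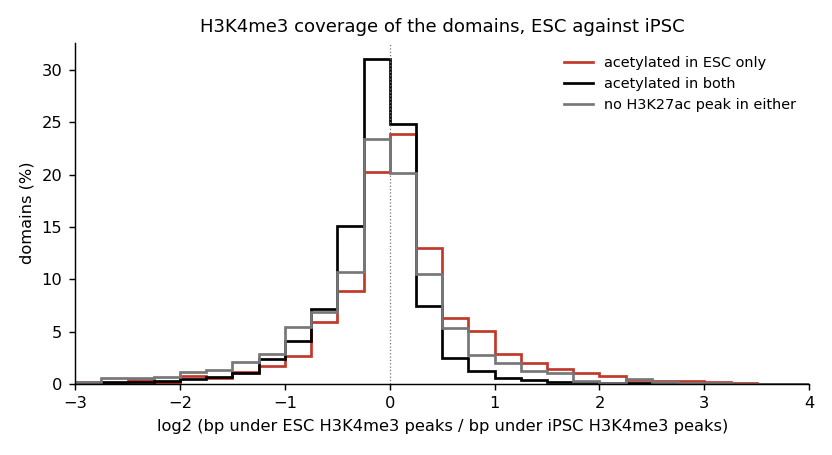
Distribution of the log2 ratio of base pairs under ESC to base pairs under iPSC H3K4me3 peaks (horizontal axis, steps of 0.25) as percent of domains (vertical axis), for ESC-only domains (red), domains acetylated in both (black) and domains with no H3K27ac peak in either list (grey). The red outline has the heaviest right side, with 17.4% of ESC-only domains at a ratio of at least 1.5, against 4.01% and 11.3%.

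The lean depended on width and on the amount of H3K4me3. The difference in median log2 ratio from domains acetylated in both was 0.16 at 2 to 3 kb, 0.15 at 3 to 4 kb, 0.11 at 4 to 6 kb and 0.06 at 6 kb or more, the last with only 23 ESC-only domains. Across bins of the strongest ESC H3K27ac peak that held at least 50 domains of each class, it was 0.20 at a −log10 q of 5 to 10, 0.21 at 10 to 20 and 0.34 at 3 to 5. With the domains divided into 5 equal groups by iPSC H3K4me3 base pairs, it fell from 0.29 in the lowest group to −0.0028 in the highest. With the groups made by ESC H3K4me3 base pairs instead, it was 0.31 in the lowest group, 0.36 in the next and 0.10 in the highest, and positive in all 5. Each grouping used a term of the ratio itself, so these values describe the spread of the difference. With the shortened ESC H3K27ac list the difference was 0.16, and the domains acetylated in iPSC only then had a median of −0.27.

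The ESC-only domains differed among themselves with this ratio. Those with at least 1.5 times as much ESC H3K4me3 had a median of 1324 bp under ESC and 602 bp under iPSC peaks, and those with the opposite ratio 655 and 1277 bp. The 1222 between them had 1642 and 1602.5 bp. The median ESC H3K27ac coverage was 17.7%, 14.8% and 17.1% for the 297, the 187 and the 1222. The highest ESC H3K27ac fold was 3.14, 3.19 and 3.21, and the highest −log10 q 7.92, 7.11 and 7.59. The fold thus hardly followed the H3K4me3 ratio, while coverage and −log10 q were lowest where iPSC H3K4me3 was larger. With ESC H3K27ac over at least 5%, 10% and 20%, the H3K4me3 difference from domains acetylated in both was 0.12, 0.16 and 0.20. An ESC H3K9me3 peak overlapped 34% of the 297 with more ESC H3K4me3, against 21.9% of the 187 and 21.4% of the 1222.

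H3K4me3 was also placed less alike in the 2 cell types than at domains acetylated in both. The strongest ESC and iPSC H3K4me3 summits lay within 200 bp of each other at 868 ESC-only domains, 50.9% (Wilson interval 48.5% to 53.2%), against 56.3% (55.4% to 57.1%) of those acetylated in both and a background of 54.5%. At domains with no H3K27ac in either list the share was 51.9% (49.4% to 54.3%), an interval that overlaps that of the ESC-only domains. The base pairs under H3K4me3 in both lists were a median of 61.3% of those under either list, against 71.7% at domains acetylated in both and 60.5% with no H3K27ac. In this, ESC-only domains were near those with no H3K27ac peak in either list.

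H3K9me3, which the rule did not use, overlapped the ESC-only domains more often in ESC than in iPSC. An ESC H3K9me3 peak overlapped 404 of them, 23.7% (Wilson interval 21.7% to 25.8%), against 18.6% (17.9% to 19.3%) of domains acetylated in both, and the share was higher on 19 of 20 autosomes by an average of 5.61 ± 5.01 percentage points (SD over autosomes). Over all domains it was 28.6%. An iPSC H3K9me3 peak overlapped 267, 15.7% (14.0% to 17.5%), against 17.9% (17.3% to 18.6%) of domains acetylated in both and 25.4% over all domains, and the share of ESC-only domains was the higher on 4 of 20 autosomes. The all-domain shares include domains above the H3K27me3 limit. Over the 22071 domains that met the H3K4me3 and H3K27me3 conditions the shares were 21.7% in ESC and 18.9% in iPSC. At domains with no H3K27ac peak in either list the shares were 27.6% in ESC and 22.2% in iPSC. With all widths pooled, ESC-only domains thus had an iPSC peak less often than domains acetylated in both or with no H3K27ac. The interval of the ESC-only share overlapped that of domains acetylated in both. Split by width, the iPSC shares of ESC-only domains and those acetylated in both were close up to 6 kb. They were 14.0% and 15.0% at 2 to 3 kb, and 20.1% and 19.7% at 3 to 4 kb. At 4 to 6 kb they were 20.2% and 20.6%. At 6 kb or more they were 17.4% of only 23 domains and 25%. With no H3K27ac the shares at 2 to 3, 3 to 4 and 4 to 6 kb were 21.9%, 22.3% and 25%.

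Few ESC-only domains lay deep in H3K9me3. At least 25% of the length was covered in ESC at 125, 7.33% (Wilson interval 6.18% to 8.66%), against 4.19% of domains acetylated in both and 10.1% over all domains. In iPSC it was 80, 4.69% (3.78% to 5.80%), against 3.16% and 8.46%. Over the 22071 domains that met the H3K4me3 and H3K27me3 conditions the shares were 5.90% in ESC and 4.15% in iPSC. At domains with no H3K27ac peak in either list they were 11.6% and 7.96%. The share was higher at ESC-only domains than at those acetylated in both on 17 of 20 autosomes in ESC and on 13 of 20 in iPSC. The iPSC difference was not seen without H3K27me3: where no H3K27me3 peak overlapped in either cell type, the iPSC shares were 1.28% and 1.30%, and the ESC shares 3.68% and 2.27%. At 1255 of the 1706, 73.6%, no H3K9me3 peak overlapped in either cell type, near the 75.4% of domains acetylated in both and the 73.4% of all 22071 domains that met the H3K4me3 and H3K27me3 conditions.

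The 1-sided H3K9me3 patterns differed in the same direction. A peak in ESC with none in iPSC was found at 184 ESC-only domains, 10.8% (Wilson interval 9.40% to 12.3%), against 6.65% of those acetylated in both and 8.54% over all domains. The opposite pattern was found at 47, 2.75% (2.08% to 3.64%), against 6.02% and 5.32%. Over the domains that met the H3K4me3 and H3K27me3 conditions the 2 patterns were found at 7.70% and 4.98%. At domains with no H3K27ac peak in either list they were found at 8.83% (7.54% to 10.3%) and 3.46% (2.67% to 4.46%). Both of these intervals overlapped those of the ESC-only domains. The autosomal ESC H3K9me3 list covered 220 Mb and the iPSC list 181 Mb. What part this difference has in these counts was not tested.

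**Figure D4:**
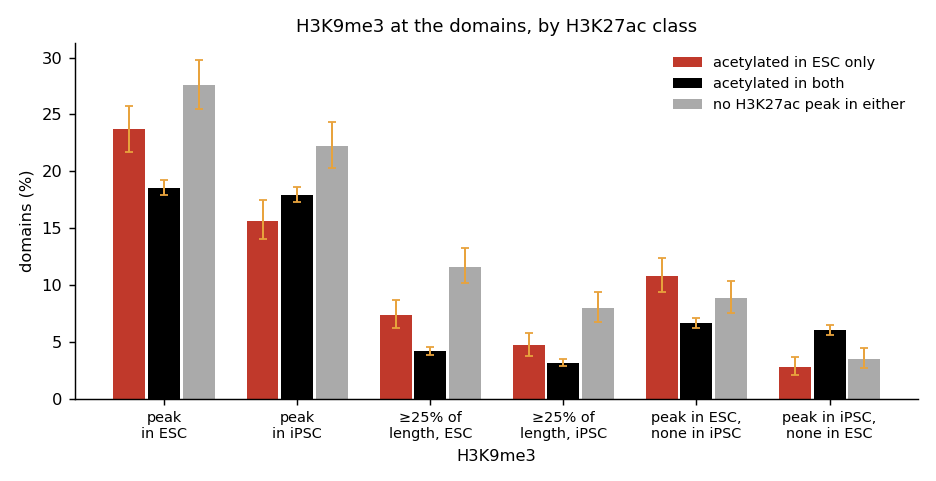
Percent of domains (vertical axis) with each H3K9me3 pattern (horizontal axis), for ESC-only domains (red), domains acetylated in both (black) and domains with no H3K27ac in either list (grey), with 95% Wilson intervals in orange. ESC-only domains had an ESC peak at 23.7% and an iPSC peak at 15.7%, against 18.6% and 17.9% of those acetylated in both.

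H3K27me3 was limited by the rule, and what remained below the limit was spread over both cell types. No H3K27me3 peak overlapped 1169 ESC-only domains (68.5%), an ESC peak alone overlapped 208, an iPSC peak alone 211, and a peak in each list 118. Under the same limit, domains acetylated in both had no peak at 60.0%, an iPSC peak alone at 19.2% and a peak in each list at 12.8%, against 12.4% and 6.92% for the last 2 at ESC-only domains. An ESC peak alone went the other way, at 12.2% of ESC-only domains and 8.03% of those acetylated in both. Under the limit, iPSC H3K27me3 peaks were less frequent inside ESC-only domains than where acetylation was shared. These shares were not split by width, and ESC-only domains were the narrower. A peak of the same length fills more of a narrow domain, so the limit and width are not independent. The shares are therefore description only. An ESC peak was present over all domains at 40.3% and an iPSC peak at 46.5%, but those domains were not held to the limit. Of the 211 with an iPSC peak alone, 120 also had an iPSC H3K9me3 peak, 56.9% (Wilson interval 50.1% to 63.4%), against 8.35% of the 1377 with no iPSC H3K27me3. At domains acetylated in both the same shares were 37.2% of 2437 and 10.5%, and at domains with no H3K27ac peak in either list 72.3% of 249 and 10.8%. Among the domains acetylated in iPSC only, 15 of the 19 with an iPSC H3K27me3 peak alone had an iPSC H3K9me3 peak (Wilson interval 56.7% to 91.5%). Without iPSC H3K27me3 it was 17.6% of 102. The overlap of these marks in iPSC was thus seen in each class. It was more frequent at domains with no H3K27ac peak (Wilson interval 66.4% to 77.5%) than at ESC-only domains. The interval of the few domains acetylated in iPSC only overlapped that of the ESC-only domains.

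Outside the domains, where the rule set no H3K27me3 limit, H3K27me3 covered more of the flanks of ESC-only domains than of those acetylated in both. In the 10 kb on each side ESC H3K27me3 covered a mean of 3.04% ± 1.0 (SD over autosomes), against 1.24% ± 0.439 beside domains acetylated in both, and it was higher on 20 of 20 autosomes. The iPSC value was 3.39% ± 0.920 against 2.11% ± 0.337, again higher on 20 of 20. Within 5 kb the means were 2.62% against 1.01% in ESC and 2.96% against 1.76% in iPSC, higher on 20 of 20 in each. The order was the same in each width class, from 2.82% against 1.17% in ESC at 2 to 3 kb to 5.40% against 1.62% at 6 kb or more. Beside domains with no H3K27ac peak in either list the values were higher still, 4.32% ± 1.75 in ESC and 4.10% ± 1.20 in iPSC. Beside the 130 domains acetylated in iPSC only they were 3.49% ± 2.71 and 3.44% ± 2.57. More flanking H3K27me3 than beside domains acetylated in both was therefore not particular to ESC-only domains.

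The flanks held less H3K27ac in both cell types and a little more ESC H3K9me3. ESC H3K27ac covered 5.63% of the 10 kb on each side, against 7.21% beside domains acetylated in both, and iPSC H3K27ac 2.33% against 4.11%, each lower on all 20 autosomes. By the rule no iPSC H3K27ac peak could cross the edge of an ESC-only domain. The iPSC values are therefore partly set by the choice, and the H3K27ac values are description only. The nearest iPSC H3K27ac peak outside an ESC-only domain was a median of 4824.5 bp away, against 3250 bp, within 1 kb at 109 of them (6.39%) and within 10 kb at 1234 (72.3%). For domains acetylated in both the shares were 14.5% and 82.2%, and for those with no H3K27ac peak in either list 3.09% and 67.0%. The ESC-only domains thus lay between these classes. ESC H3K9me3 covered 7.29% of the flanks against 5.99%, higher on 19 of 20 autosomes, and iPSC H3K9me3 4.90% against 4.33%, higher on 16 of 20. Flanking H3K4me3 differed in neither direction on all autosomes: ESC values were higher on 14 of 20 and iPSC values on 6 of 20. Beside domains with no H3K27ac peak in either list, H3K27ac covered 4.17% in ESC and 1.85% in iPSC, and H3K9me3 7.84% and 5.25%. Beside domains acetylated in iPSC only, H3K27ac covered 4.55% and 2.81%, and H3K9me3 7.41% and 5.79%. Less H3K27ac and more H3K9me3 than beside domains acetylated in both were thus shared by these classes.

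Along the genome the ESC-only domains were scattered. They made up between 7.11% (chromosome 6) and 14.9% (chromosome 20) of the ESC-acetylated domains of an autosome, with a mean of 10.1% ± 1.89 (SD, n = 20 autosomes). After chromosome 20, the highest shares were on chromosome 10, 13.3%, chromosome 19, 11.8%, and chromosome 9, 11.4%. The Wilson intervals of chromosome 20, 12.2% to 18.0%, and chromosome 6, 5.64% to 8.91%, did not overlap, whereas those of chromosomes 10 and 20 did. As a description over 20 autosomes, Spearman's rho between this share and the number of domains per Mb, which ran from 7.48 to 23.3, was 0.65. In the first or last 2 Mb of an autosome 110 of 720 ESC-acetylated domains were ESC-only, 15.3% (Wilson interval 12.8% to 18.1%), against 9.61% (9.17% to 10.1%) elsewhere.

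**Figure D5:**
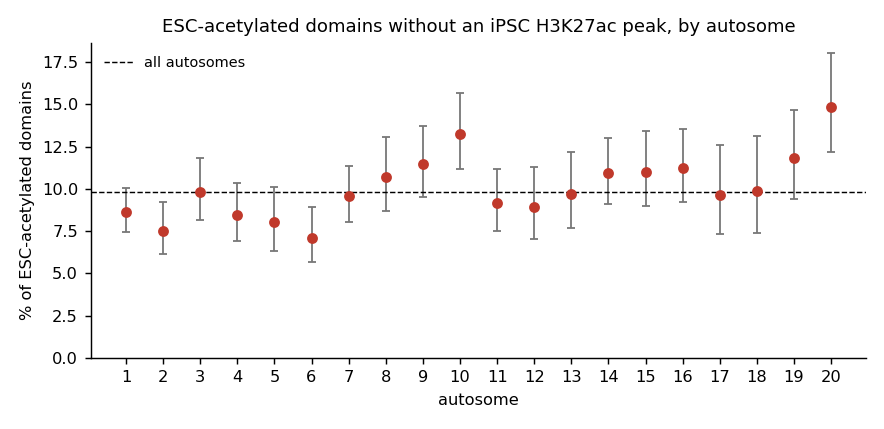
ESC-only domains as percent of the ESC-acetylated domains (vertical axis) of each autosome (horizontal axis), points with 95% Wilson intervals; the dashed line is the share over all autosomes, 9.85%. Chromosome 6 lies lowest at 7.11% and chromosome 20 highest at 14.9%.

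Neighbouring domains shared the pattern a little more often than others. The next ESC-acetylated domain after an ESC-only domain was also ESC-only in 229 of 1702 cases, 13.5% (Wilson interval 11.9% to 15.2%), against 9.46% (9.01% to 9.93%) after one with an iPSC peak. In order along the chromosomes, 1287 ESC-only domains stood alone, 159 pairs stood together, 23 runs held 3 and 8 runs held 4. They fell in 1072 of 2604 bins of 1 Mb, and 658 of these bins held 1. The densest bin was 1 to 2 Mb of chromosome 15 with 7 among 19 ESC-acetylated domains. Of 6 bins that held 6 each, the first in chromosome order were 44 to 45 Mb of chromosome 7 (16 ESC-acetylated domains) and 58 to 59 Mb of chromosome 9 (21). No 1 region accounted for the ESC-only domains.

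Megabase stretches with more H3K9me3 in iPSC held 10 of them. In 29 autosomal bins of 1 Mb iPSC H3K9me3 coverage was at least 20 percentage points above that of ESC, and 10 of the 34 ESC-acetylated domains there were ESC-only, 29.4% (Wilson interval 16.8% to 46.2%), against 9.81% (9.37% to 10.3%) elsewhere. The intervals did not overlap, and the 10 were 0.586% of all ESC-only domains (0.319% to 1.08%). In these bins lay 0.134% of the domains acetylated in both, 0.494% of those with no H3K27ac peak, 0.240% of all that met the H3K4me3 and H3K27me3 conditions, and 0.683% of all 30730 domains. They lay in 9 bins on 6 chromosomes, and the only bin with more than 1 was 89 to 90 Mb of chromosome 10, with 2.

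The single domains below show the range. Coordinates are printed 1-based, with the first and last base both included. Their genome build is not stated in the sources used here. No gene is named, because the gene table at hand describes an assembly whose chromosome ends differ from those of the lists. The domain with the most ESC H3K27ac was chr10:26886826-26893441, where 5 ESC peaks covered 2309 of 6616 bp (34.9%), with a highest fold enrichment of 3.41 and the nearest iPSC H3K27ac peak 11382 bp away. Its H3K4me3 covered 60.2% in ESC and 49.3% in iPSC, and ESC H3K27me3 covered 14.8%, with none in iPSC. At chr14:1558371-1561851, 6 ESC H3K27ac peaks covered 57.8% of 3481 bp, the nearest iPSC peak lay 2294 bp away, and H3K4me3 covered 69.7% in ESC and 64.0% in iPSC. The log2 ratio of ESC to iPSC H3K4me3 was 0.29 at the first and 0.12 at the second.

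Of the other 6 domains with the most ESC H3K27ac, 2 more were on chromosome 10. These were chr10:79805773-79812999, with 27.5% of the length covered by 7 ESC H3K27ac peaks, and chr10:77051715-77055737, with 41.5% covered by 4 peaks. The others were chr4:164076919-164084076, chr11:94198497-94206145, chr9:106534890-106543182 and chr1:127337771-127342031, with 26.6%, 24.6%, 21.3% and 38.4% covered. The last had H3K4me3 over 59.4% in ESC and 29.6% in iPSC, a log2 ratio of 1.01, and that ratio lay between −0.32 and 0.61 at the other 7.

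The highest ESC H3K27ac fold enrichment, 6.73 with a −log10 q of 26.3, was at chr5:58116614-58118864. Its H3K4me3 covered 80.9% in ESC and 91.2% in iPSC, iPSC H3K27me3 covered 20.3%, and the nearest iPSC H3K27ac peak was 25145 bp away. The next, chr10:35208078-35211104, had a fold of 6.16 and the highest −log10 q of them all, 27.5, with no H3K27me3 or H3K9me3 peak in either cell type. At chr15:17388424-17390573, with a fold of 5.79, H3K4me3 was the more extensive in iPSC, 44.7% against 12.7% in ESC. At chr19:32052290-32054530, with a fold of 5.58, H3K9me3 covered 67.9% in iPSC and 6.51% in ESC, and the nearest iPSC H3K27ac peak was 90628 bp away. The last of them, chr2:60249024-60251609, had a fold of 5.55 and H3K4me3 over 95.6% in ESC and 81.5% in iPSC. Strong ESC acetylation without an iPSC peak thus came with H3K4me3 leaning either way and, at 1 of the 5, with extensive iPSC H3K9me3.

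The widest ESC-only domain, chr7:157728595-157739554, was 10960 bp long, had ESC H3K27ac over 11.4% of its length, and had H3K9me3 over 19.2% in ESC and 20.1% in iPSC. The next 4 were chr14:104304555-104314774, chr13:90153543-90163045, chr20:2033408-2042715 and chr20:3678502-3687676, 9175 to 10220 bp long with ESC H3K27ac over 10.2% to 14.9%. The widest domains were thus acetylated over a small part of their length.

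The most iPSC H3K9me3 was at chr10:88244135-88248119, where it covered 71.0% against 12.8% in ESC, with H3K4me3 over 77.4% in ESC and 68.2% in iPSC. The other 4 domains of that order already had extensive H3K9me3 in ESC. They were chr13:87673483-87679411, with 37.9% in ESC and 44.0% in iPSC, chr18:54523213-54527963, with 64.6% and 54.5%, chr8:89769495-89772391, with 55.2% and 81.6%, and chr7:367317-370964, with 79.9% and 62.7%. At chr18:54523213-54527963 H3K4me3 covered 37.9% in ESC and 8.27% in iPSC, the largest H3K4me3 difference among these 5. All 5 had iPSC H3K27me3 over 14.2% to 22.6% of the length and none in ESC.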

How the data were processed

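ChIP-seq peak lists of H3K4me3, H3K27ac, H3K27me3 and H3K9me3, 1 for each cell type and mark, were analysed. The submitters' processing notes name SAMtools 1.10, Picard, MACS2 and deepTools; for aligner, genome build, thresholds and the pooling of libraries nothing is given in the sources used here. Each deposited list gives for every peak a fold enrichment, a ratio, and the −log10 of its q-value. Both are the authors' values and served only to rank, filter or describe the peaks of 1 list. The 16 other value columns (display score and −log10 p) were not used. The depth is unknown, and intervals cover counting error only.

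Domains and coverage were computed with Python 3.11.15, numpy 2.4.6, pandas 2.3.3 and scipy 1.17.1, and tested on simulated peaks. The domains, lists and measures were chosen with earlier results of these data known. Shares have 95% Wilson intervals; neighbouring domains are not independent, and an SD over autosomes is no replicate error. With 1 list per cell type and mark no p-value was computed. Summits are those of the peak with the highest −log10 q in a domain. Named were the 8 domains with the most base pairs under ESC H3K27ac, the 5 with its highest fold, the 5 widest, the 5 with the most base pairs under iPSC H3K9me3, and the 3 densest bins of 1 Mb. Chromosome ends in the gene table at hand differed by over 5 Mb from the lists' for 12 of 20 autosomes, so genes were not joined.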

Additional observations from a re-analysis of the deposited data

How the results depend on the processing

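No paired analysis was possible because each cell type and mark has 1 list and no replicate could be left out. All alternatives were run. The 1706 ESC-only domains became 845 with the ESC H3K27ac list shortened to the iPSC number of peaks, 956 and 2630 with peaks joined within 500 bp and 2 kb, 3453 and 465 with widths of at least 1.5 and 3 kb, and 2732 and 635 with ESC H3K27ac over at least 5% and 20%. They were between 1169 and 2152 under the other settings. Their share of ESC-acetylated domains, 9.85%, was 16.1% with firm peaks alone (−log10 q of at least 5 in narrow and 2 in broad lists) and 5.88% with the shortened list. It was 8.48% and 10.5% with the 500 bp and 2 kb joins, 13.7% and 5.56% with the width limits, and 13.9% and 5.10% with the acetylation limits. It was 12.4% with iPSC H3K27ac allowed over up to 5%, 9.22% with none within 1 kb, 11.1% with no H3K27me3 peak and 10.4% with H3K27me3 under 50%. By width from 2 kb up it was 13.8%, 7.57%, 4.38% and 1.80%. The H3K4me3 difference of 0.16 (log2) kept its sign under the 16 alternatives. It was 0.089 with firm peaks, 0.079 and 0.23 with the joins, 0.20 with ESC H3K27ac over at least 20%, 0.21 with no H3K27me3 peak, and 0.11 and 0.057 at 4 to 6 kb and 6 kb or more. H3K9me3 over at least 25% of ESC-only domains, 7.33% in ESC and 4.69% in iPSC, was 5.33% and 3.66% with firm peaks, and 4.81% and 2.72% with the 500 bp join. It was 8.97% in ESC with the 2 kb join, 3.78% in iPSC with ESC H3K27ac over at least 20%, 3.68% and 1.28% with no H3K27me3 peak, 9.94% and 8.10% with H3K27me3 under 50%, 8.95% in ESC at 3 to 4 kb, and 0% in both at 6 kb or more (0 of 23, Wilson interval to 14.3%). Counting any overlap it was 23.7% and 15.7%. Domains acetylated in both had 3.18% in ESC and 2.57% in iPSC with the 500 bp join, so the iPSC difference was small under that setting. Summits within 200 bp of each other, 50.9%, were 47.7% at widths of at least 3 kb, 45.7% at 4 to 6 kb and 26.1% at 6 kb or more, and with limits of 100 and 500 bp the shares were 47.0% and 64.2%. The cause was not tested for any of these shifts. Peak strength, and through it an unknown depth, limits what a missing iPSC peak can show.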

Other observations

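The X chromosome was outside the choice of domains. There, 22 of 233 ESC-acetylated domains met the same conditions, and 13 domains were acetylated in iPSC only, among 512 that met the H3K4me3 and H3K27me3 conditions and 1015 in all.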
